A study of Gallus gallus with 7 samples.

Results

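The 200 genes whose level varied least between the ovaries of 7 laying hens were examined. They were chosen from 24356 Ensembl genes by a measured value: 9127 genes averaged 20 CPM or more (CPM is the count as a share of the library total, times 1000000), and of these the 200 with the smallest standard deviation (SD) of log2(CPM + 1) over the 7 hens were taken. The small spread of these genes is therefore how they were found and not a result. The birds, Single-comb White Leghorn hens of the Shaver stock, came from a flock of 40 kept in single cages on 16 hours of light and 8 of darkness, with eggs recorded daily from week 16 to week 76. Hens 8, 9 and 20, of the upper quartile of laying, were persistent layers (PL, laying rate 100%), and hens 10, 12, 13 and 42, of the lower quartile, were non-persistent layers (NPL, laying rate at most 82%). About 10 mg of ovarian body without the follicles over 1 mm was taken from hens reared to week 76, so the tissue has no large yolky follicle, and 1 library was made per hen.

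Genes of near-constant level in a tissue are the ones used as references in quantitative PCR, and many encode parts of machines that every cell runs, such as the proteasome, the spliceosome or the translation apparatus. A piece of ovarian body holds small follicles with oocytes and granulosa and theca cells, besides stroma, vessels and blood, so a gene can be constant in bulk RNA when all these cells carry it or when the changes in separate cell types cancel. Fewer cells of a type and less RNA per cell cannot be told apart in bulk tissue. Genes carry only Ensembl IDs in the deposited counts, and these were not matched to symbols here, so neither the functions of the 200 genes nor the ovarian cell type markers are given, and no sequence is shown.

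The libraries held between 21535850 and 27803563 counts. The hens did not vary evenly: on the first principal component of the genes tested by edgeR that were not among the 200, which carried 48.6% of their variance, PL hens 8, 9 and 20 had scores of -29.1, 45.8 and 22.9, and NPL hens 10, 12, 13 and 42 had scores of -9.6, -26.0, 22.4 and -26.4. Hens 9, 20 and 13 thus lay on one side and the other hens on the other, across the labelled groups. The choice of the genes, the PL and NPL comparison and the counts of groups that stand apart are therefore also given without single hens.

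The 200 genes were of moderate abundance. Their mean level was between 21.9 and 1346 CPM with a median of 73.3 CPM, where all 9127 genes of at least 20 CPM had a median of 60.8 CPM. The lowest count of any of them in any hen was 472. Counts of this order follow from the CPM limit, the small spread and the library totals. Together they held 2.06%, 2.11% and 2.08% of the counts in PL hens 8, 9 and 20, against 2.08%, 2.09%, 2.09% and 2.08% in NPL hens 10, 12, 13 and 42, levels that the choice of the genes holds nearly constant. The choice reached unevenly into the levels. It took 57 of the 3716 genes of 20 to 50 CPM (1.53%), 67 of the 2799 genes of 50 to 100 CPM (2.39%), 64 of the 1755 genes of 100 to 200 CPM (3.65%) and 12 of the 857 genes above 200 CPM (1.40%). The share was highest at 100 to 200 CPM and lowest above 200 CPM, and the median SD of all genes was 0.252 above 200 CPM and between 0.199 and 0.218 in the lower classes.

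The SD of log2(CPM + 1) of the 200 genes was between 0.018 and 0.0658 with a median of 0.0561, and that of all 9127 genes had a median of 0.211. In plain terms the highest hen exceeded the lowest by 1.039-fold to 1.159-fold, with a median of 1.116-fold. Over all genes of at least 20 CPM the median was 1.508-fold, and 16.5% of them varied by 2-fold or more. No gap separates the chosen genes from the next ones. The last 2 genes inside had SDs of 0.06575 and 0.0658, and the next 2 genes, just outside, had SDs of 0.06582 and 0.06583. The list is thus a slice of a continuous order.

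**Figure D1:**
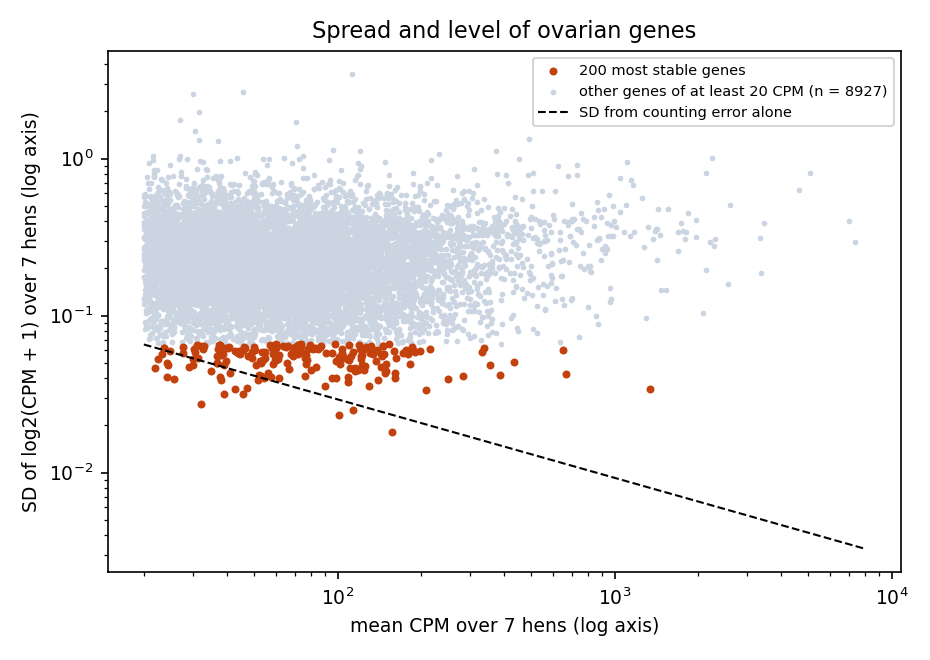
Each point is a gene, with its mean CPM over the 7 hens on the x axis and the SD of log2(CPM + 1) on the y axis, both log axes; the 200 most stable genes are orange, the other genes of at least 20 CPM grey, and the dashed line is the SD that counting error alone gives. The chosen genes touch that line near 20 CPM, where it stands at 0.0654, 23 of them lie below it, and beyond 200 CPM all of them lie above it.

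Counting error alone gives an SD of 0.0654 for a gene of 20 CPM at these depths, 0.0414 at 50 CPM, 0.0293 at 100 CPM and 0.0207 at 200 CPM. The limit of the list, 0.0658, is therefore almost the counting error of the least abundant genes that could enter. For 79 of the 200 genes (39.5%) the 7 counts did not spread beyond counting error (Pearson chi-square against the library totals, 6 degrees of freedom, under its 95th percentile), against 119 of the 9127 genes (1.30%). The choice took the smallest spreads in these same counts, so this contrast follows from it and is a description. The 79 genes were mostly of low level. They were 51 of the 57 genes of 20 to 50 CPM, 22 of the 67 of 50 to 100 CPM, 6 of the 64 of 100 to 200 CPM and 0 of the 12 above 200 CPM. In 23 of the 200 the SD was under that of counting error. How much the hens differ in these genes could not be resolved at this depth. The 12 stable genes above 200 CPM did spread beyond counting error. With 1 library per hen, differences between hens, library preparation and scaling cannot be told apart there.

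ENSGALG00000010286 had the smallest SD of all (0.018). It lay at 153.5, 157.5 and 158.3 CPM in PL hens 8, 9 and 20, against 156.0, 159.5, 157.0 and 155.6 CPM in NPL hens 10, 12, 13 and 42. The groups overlapped and the highest hen was 1.039-fold above the lowest. Its chi-square was 0.58 per degree of freedom, so the 7 counts did not spread beyond counting error. As the gene was picked for the smallest SD, a low chi-square follows from the pick. It does not show that the hens are alike in this gene.

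ENSGALG00000005587 was the most abundant of the 200 and ranked 9 in SD (0.0339). It lay at 1373.5, 1340.4 and 1295.5 CPM in PL hens, against 1322.0, 1391.3, 1352.0 and 1347.4 CPM in NPL hens 10, 12, 13 and 42. Hen 20 was lowest and hen 12 highest, and the groups overlapped. With between 28906 and 36757 counts per hen the counting SD was only 0.008 and the chi-square was 17.4 per degree of freedom. The libraries thus differed beyond counting error in a gene that stood among the 10 most stable.

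**Figure D2:**
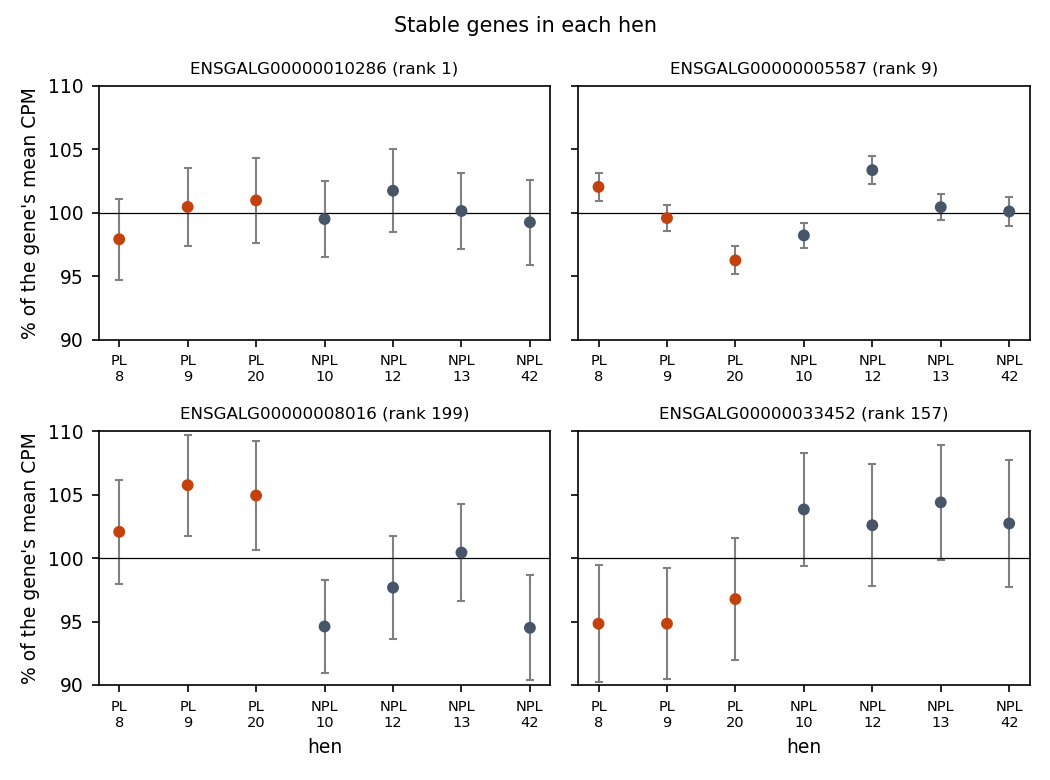
Level of 4 of the stable genes in each hen, as a percentage of the gene's own mean CPM, with PL hens (orange) on the left and NPL hens (dark) on the right; bars are 95% intervals for counting error only, and ranks are by SD. The groups overlap in the upper panels and are apart in the lower ones, where all hens still lie within 1.119-fold of each other.

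Persistent and non-persistent hens were compared to ask which ovarian genes differ with laying late in life. Since the 200 genes were chosen for a small spread over these same hens, a small group difference follows from the choice, and their differences are a description. In the edgeR quasi-likelihood test over all genes, 0 of the 17051 genes tested passed an adjusted p of 0.05 (0%), and so did 0 of the 200. DESeq2 passed 0.0569% of the genes to which it gave an adjusted p, and 0 of the 200. At an unadjusted p under 0.05 there were 3.52% of all genes and 0 of the 200 by edgeR, and the smallest p of the 200 was 0.204. DESeq2 and limma voom with sample weights likewise gave 0 of the 200 an unadjusted p under 0.05. They gave 3.7% and 33.6% of the genes of at least 20 CPM one, and why these shares differ so much was not tested. At an adjusted p under 0.05 limma voom passed 0 of 17051 genes. The log2 difference (PL over NPL) of the 200 was between -0.126 and 0.095 in the edgeR fit, with a median absolute value of 0.032, against 0.132 for all genes of at least 20 CPM. The 95% interval lay within 1.5-fold in either direction for all 200, and for 64.0% of the genes of at least 20 CPM.

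These intervals are wider than the genes' own spread. edgeR draws each gene's dispersion towards that of genes of like level. The biological coefficient of variation it estimated gene by gene in this way was between 0.117 and 0.153 for the 200. The quasi-likelihood test takes its own dispersions, so these values stand beside the standard errors derived from it and do not give them. The observed coefficient of variation of the 200 was between 1.25% and 4.72%, counting error included. The median standard error of their log2 differences was 0.10, while their own SD over the 7 hens would give 0.043. The absence of small p-values among them therefore says little about whether small shifts between the groups exist.

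How many of the differences went each way depended on the scaling. On plain CPM, 94 of the 200 genes were higher and 106 lower in PL, with a median log2 difference of -0.001. With TMM factors, which edgeR uses to scale libraries, 71 were higher and 129 lower, with a median of -0.014. More genes were lower in PL on both scales, but the split was nearly even on plain CPM. No direction is therefore given for the genes as a group.

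It was also counted in how many of the 200 genes the groups stood apart. The rule used the same values, and the order of the hens goes with the spread, so these counts are a description and support nothing. On plain CPM, every PL hen lay above every NPL hen in 7 of the 200 genes, where 1.14% of the genes of at least 20 CPM did so, and every PL hen lay below in 8, against 2.31%. Together these were 15 of the 200 (7.5%), against 3.45% of all 9127. With TMM factors the count was 7 (1 above and 6 below), against 3.37% of all genes, which is near the background, so the higher count held on the plain CPM scale alone, on which the genes were chosen; with DESeq2 size factors it was 7 as well, against 3.5% of all genes. Leaving out single hens on plain CPM raised both the count and its background. A gene whose groups stand apart stays so when a hen is left out, so neither could fall. Dropping PL hens 8, 9 and 20 one at a time gave counts of 31, 28 and 29. Of all genes of at least 20 CPM, 33.9%, 6.21% and 6.5% then stood apart, so group size alone does not set the rise. Without hen 8 the share of the 200 was below that of all genes. The remaining PL hens, 9 and 20, then scored 45.8 and 22.9 on the first principal component, and the highest NPL score was 22.4, of hen 13. The part of that component in the 33.9% was not tested. Dropping NPL hens 10, 12, 13 and 42 one at a time gave counts of 19, 27, 25 and 23, when 4.35%, 6.34%, 10.3% and 4.73% of all genes did. In these choices of hens, and without hens 9 and 20, the share of the 200 was above that of all genes.

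The gene with the largest positive log2 difference among the 200, ENSGALG00000008016, was also the one with the smallest edgeR p among those with PL above, and stood last but one in the list by SD. It lay at 99.8, 103.4 and 102.6 CPM in PL hens 8, 9 and 20, against 92.5, 95.5, 98.2 and 92.4 CPM in NPL hens 10, 12, 13 and 42. The groups did not overlap, though PL hen 8 and NPL hen 13 were close. Means were 102 ± 1.92 CPM in PL (SD, n = 3) and 94.6 ± 2.74 CPM in NPL (SD, n = 4), a log2 difference of 0.10 (SE 0.09, edgeR adjusted p = 0.886).

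The largest negative difference was that of ENSGALG00000033452, ranked 157. It lay at 68.4, 68.4 and 69.8 CPM in PL hens 8, 9 and 20, against 74.9, 74.0, 75.3 and 74.1 CPM in NPL hens 10, 12, 13 and 42. All PL hens were below all NPL hens, and the hens of each group were within 1.5 CPM of each other. Counting error alone gives this gene an SD of 0.0344 on the log2 scale. Values this close therefore do not show that the hens of a group are alike. Means were 68.9 ± 0.817 CPM in PL (SD, n = 3) and 74.6 ± 0.63 CPM in NPL (SD, n = 4), a log2 difference of -0.13 (SE 0.09, 95% interval -0.33 to 0.08, edgeR adjusted p = 0.886). Both genes were picked as the ends of the list, which favours separation, and neither passed the test.

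Few of the stable genes followed the main axis that divides the hens. Taking the smallest SDs over the same 7 hens leaves out genes that move along it, so the correlations, shifts and components given here describe the choice and are no separate result. Over the 7 hens, 4 of the 200 genes followed it with an absolute Pearson correlation over 0.9 (3 rising with it and 1 falling), against 2861 of the 9127 genes of at least 20 CPM (31.3%). The median absolute correlation was 0.40 in the 200 and 0.81 in all. Counting error takes a larger part of the spread in the 200, of which 39.5% did not spread beyond it against 1.30% of all genes, and its part in the weaker correlations was not tested. From one end of the axis to the other the 200 genes moved by a median of 0.050 on the log2 scale and by at most 0.144, against a median of 0.402 for all genes. The variance left within the 200 had no leading direction of the same weight: its components carried 22.3%, 19.7%, 17.8%, 15.4%, 12.6% and 12.2%, against 48.6%, 14.7%, 12.9%, 10.6%, 6.9% and 6.31% in the other genes tested.

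**Figure D3:**
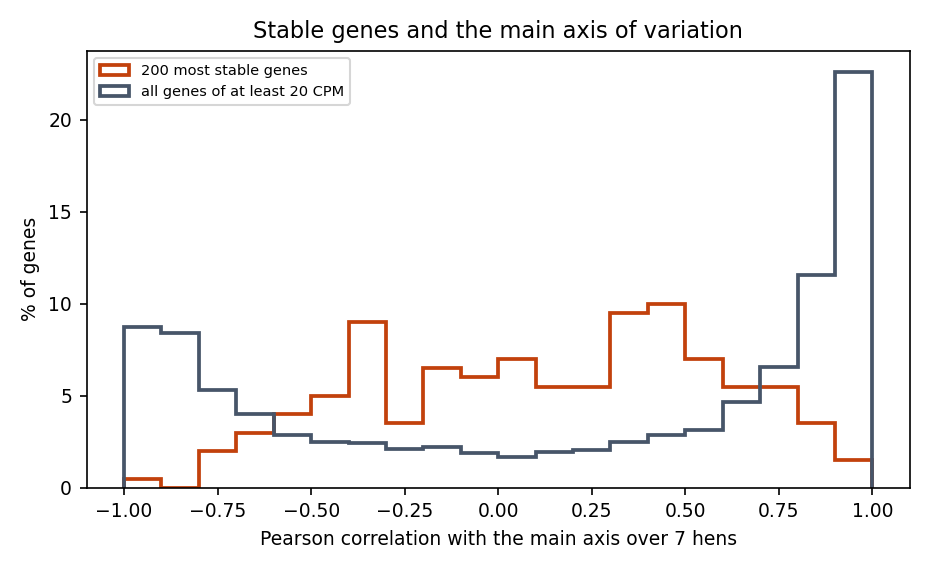
Share of genes (y axis, %) by their Pearson correlation over the 7 hens with the main axis of variation (x axis), for the 200 most stable genes (orange) and all genes of at least 20 CPM (dark). All genes pile up at both ends, with 31.3% beyond 0.9 in either direction, whereas the stable genes spread over the middle, with 4 of 200 beyond 0.9.

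No hen was the highest or the lowest in most of the 200 genes, but some hens leaned to one side. PL hens 8, 9 and 20 were the highest or the lowest in 65, 68 and 43 of the 200 genes, and NPL hens 10, 12, 13 and 42 in 47, 63, 62 and 52. Hens 8, 9 and 20 were highest in 16, 47 and 16 genes and lowest in 49, 21 and 27. Hens 10, 12, 13 and 42 were highest in 28, 33, 36 and 24 and lowest in 19, 30, 26 and 28. Over all genes of at least 20 CPM the ends were less even: hen 9 was at one end in 59.4% and hen 10 in 10.8%, against 34.0% and 23.5% of the 200. A slight common shift remained, whose direction depended on the scaling. On plain CPM the median deviation of the 200 from their own means was -0.021 on the log2 scale in PL hen 8 and 0.017 in PL hen 9, and between -0.008 and 0.006 in the other hens. Over all genes of at least 20 CPM it was -0.070 in hen 8 and 0.087 in hen 9 on that scale. With TMM factors the medians of the 200 were 0.042, -0.019 and -0.053 in PL hens 8, 9 and 20, against -0.003, 0.046, -0.047 and 0.031 in NPL hens 10, 12, 13 and 42. Those of all genes were then -0.006 in hen 8 and 0.051 in hen 9, with the sign opposite to that of the 200 in both hens.

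To see the same measure in hens that took no part in the choice, the rule was applied to 6 hens and the chosen 200 genes were measured in the remaining hen. Their median absolute log2 difference from the mean of the 6 was 0.069, 0.123 and 0.067 in PL hens 8, 9 and 20, against 0.193, 0.303 and 0.160 for all genes of at least 20 CPM. In NPL hens 10, 12, 13 and 42 it was 0.055, 0.092, 0.073 and 0.064, against 0.10, 0.183, 0.161 and 0.175 for all genes. In each of the 7 hens, genes chosen in the other hens thus lay closer to those hens' mean than genes at large. The choices share most of their hens, so they are not 7 separate checks. The chosen genes had median SDs of 0.0456 to 0.0544 over the hens that chose them. Their median absolute difference in the remaining hen was above that SD each time, so part of the small spread did not carry over. At most 3 of the 200 differed by more than 0.5 on the log2 scale, in hen 9, where 23.9% of all genes did. Such a difference is wide for these genes: those chosen without hen 9 had a median SD of 0.0456 over the 6 hens that chose them, and their median absolute difference in hen 9 was 0.123. The median difference was largest in hen 9 for the chosen genes and for all genes alike.

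**Figure D4:**
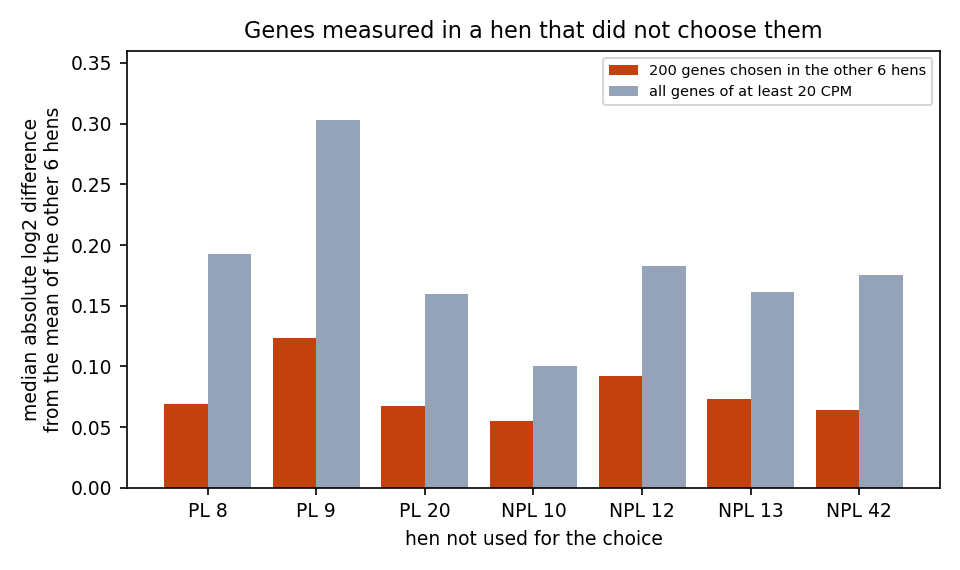
For each hen, PL on the left and NPL on the right, the bars give the median absolute log2 difference of its level from the mean of the other 6 hens, for the 200 genes chosen in those 6 (orange) and for all genes of at least 20 CPM (grey). The orange bar is the lower one in each of the 7 hens, between 0.055 and 0.123.

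The same was seen across the labelled groups. Genes chosen as the 200 most stable in the 3 PL hens had a median SD of 0.098 in the NPL hens, against 0.170 for all genes, and 0.024 in the PL hens themselves. Genes chosen in the 4 NPL hens had a median SD of 0.122 in the PL hens, against 0.241 for all genes, and 0.0303 in the NPL hens. The PL choice and the NPL choice shared 19 genes, 9.5% of each, where 200 genes are 2.19% of the 9117 that the NPL choice drew on. Of those 19, 16 were also among the 200 chosen over all hens. That choice used the same values, so this last overlap is a description. Genes chosen in the hens of one group thus had a smaller median spread than all genes in the other group, while most genes of each choice were not in the other. Hens of both groups lay on both sides of the main axis, and its part in this was not tested.

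Within the list, the genes of smallest spread were the ones that stayed. When each hen was left out in turn and the choice made again, 80 of the 200 genes were chosen all 7 times, with a median SD of 0.0446. Of the 50 genes with the smallest SD, 50 were chosen all 7 times, and of the last 50 none was and 47 were chosen at most 3 times. Since SDs over 6 of the 7 hens share most of their values with the SD over all, this is a description of the order and no independent check. Without hen 9, 108 of the 200 were kept, without hen 12, 129, and without each of the other hens between 142 and 165.

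The choice also moved with the scaling of the libraries. The TMM factors were 0.956, 1.026 and 1.037 in PL hens 8, 9 and 20, against 1.004, 0.970, 1.037 and 0.973 in NPL hens 10, 12, 13 and 42. Their SD on the log2 scale, 0.0492, is close to the median SD of the stable genes, so a change of scaling shifts the hens by about as much as these genes vary. Chosen on TMM-scaled CPM, 85 of the 200 remained, and with DESeq2 size factors 86. With TMM factors the SDs of the 200 genes were between 0.0158 and 0.1064 with a median of 0.0674, against 0.203 for all genes. In the order by SD on that scale, 197 of them stood among the first 1000. TMM rescales the same counts by factors whose SD is small beside 0.203. The small spread on that scale therefore follows from the choice and is a description.

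**Figure D5:**
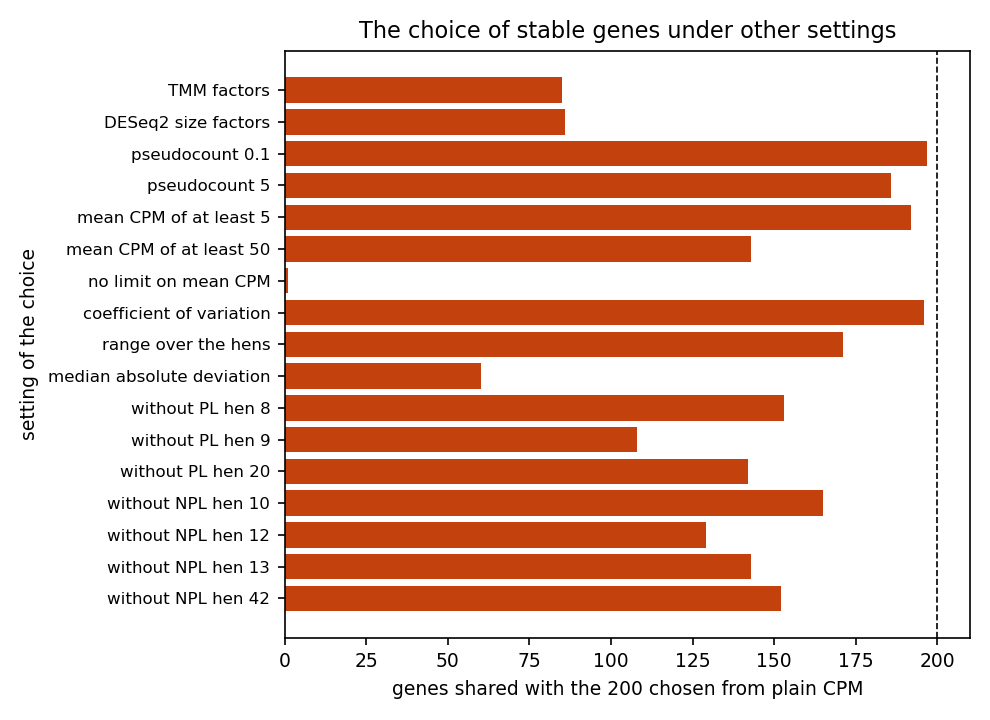
Number of genes (x axis) shared with the 200 chosen from plain CPM when the choice was made with another scaling, pseudocount (in CPM), level limit or measure of spread, or without a hen (y axis); the dashed line marks 200. The pseudocounts and the coefficient of variation keep 186 or more, the other scalings 85 and 86, and a choice with no limit on the level keeps 1.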

How the data were processed

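Ovarian RNA of 7 hens was sequenced. The labels' protocols name Trizol extraction, a column clean-up with DNase treatment and an NEBNext kit marked directional. The authors deposited raw read counts for 24356 Ensembl genes; Trim Galore and the build galGal6 are named in the submitters' processing notes. The aligner, the counter, its strand setting and the annotation are not stated in the sources at hand, so overlapping genes may share counts. Columns were tied to hens by the column name each label states.

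CPM, spreads, held-out differences and principal components were computed in Python 3.11.15 from plain library totals with a pseudocount of 1 CPM. PL was compared with NPL by edgeR 4.0.16 (filterByExpr, TMM, robust quasi-likelihood test, Benjamini-Hochberg over 17051 genes), with DESeq2 1.42.0 and limma 3.58.1 voom with sample weights as alternatives. Each library is another bird, and p-values therefore cover differences between birds together with sampling and library preparation. Counting intervals and chi-squares cover counting error only. The scripts were tested on simulated data. The members and lists were chosen with earlier results of these data known. The reference table at hand holds no Ensembl IDs, so gene lists were not used, and IDs are printed only for the first gene of each class of the naming rule: smallest spread, highest level, the last but one inside the limit and the first outside, and the ends of and groups apart in the PL and NPL comparison; the gene outside is given by its SD alone.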

Additional observations from a re-analysis of the deposited data

How the results depend on the processing

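Membership of the list depended on the settings. The 200 genes shared 85 with a choice on TMM factors, 86 with DESeq2 size factors, 60 with the median absolute deviation as the measure, and 1 with no limit on mean CPM, where all but 1 of the genes chosen lay under 1 CPM. They shared between 143 and 197 under the other settings of pseudocount, level limit and measure, and between 108 and 165 with 1 hen left out. The median SD was taken over the genes chosen anew in each setting, and was 0.0561 in the main choice. It was 0.0941 by the median absolute deviation, 0.0199 with no level limit, and between 0.0525 and 0.0601 under the other settings. With 1 hen left out it was 0.0456 to 0.0544. Each choice takes the smallest spreads, so a small median follows from it. The 200 genes of the main choice had a median SD of 0.0674 with TMM factors. Of the 200 genes, 0 passed the threshold between PL and NPL and 0 had an unadjusted p under 0.05. This was so with edgeR under each scaling, filter and hen left out, and by DESeq2 and limma voom with all hens. A small group difference follows from the choice, so these counts are a description. In the main edgeR test, 0 of all 17051 genes passed and 3.52% had an unadjusted p under 0.05. The median absolute log2 difference (0.032) was 0.053 by limma voom and 0.026 to 0.045 with 1 hen left out. The groups stood apart in 15 of the 200 genes, where they did in 3.45% of all genes of at least 20 CPM. With TMM factors the count was 7, when 3.37% of all genes stood apart, and with DESeq2 size factors 7, when 3.5% did. With 1 hen left out it was 19 to 31 of the 200 genes, when 4.35% to 33.9% of all genes stood apart. Without hen 8 the 31 of the 200 were a smaller share than the 33.9% of all genes. Without each of the other hens the share of the 200 was above that of all genes, on the plain CPM scale that chose them. With 1 hen left out the log2 difference of ENSGALG00000010286 was -0.041 to 0.003, changing sign without hen 12, and that of ENSGALG00000005587 was -0.087 to 0.010, changing sign without hen 20. Beyond the construction of the alternatives, the cause was not tested. Counting error at this depth is 0.0654 at 20 CPM, near the limit of the list (0.0658), and 0.0414 at 50 CPM. Of the 57 stable genes of 20 to 50 CPM, 51 did not spread beyond it. No paired analysis was possible because the hen numbers in the labels are not shared between the groups.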
